A study of Mus musculus with 8 samples.

Results

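Dense clusters of accessible regions are stretches of the genome in which many separate open regions lie close together. They were found by sorting the 61196 regions of an ATAC-seq data set of mouse bone marrow progenitors by position, joining neighbours on a chromosome whose gap was at most 10 kb, and keeping joined groups of 12 or more. The rule used positions only and no count. It found 62 clusters that hold 843 regions, 1.38% of all. ATAC-seq marks open DNA by the insertions of the Tn5 transposase, and the deposited value of a region is its number of reads in a library. Sorted progenitors of mouse bone marrow formed 4 groups, which the labels call cMoP, proNeu1, proNeu2 and GMP-MoP, with 2 libraries in each. The sources used here give no treatment, genotype, strain, sex, age or sorting markers. Both libraries of a group are labelled as biological replicates, but whether separate animals were used is not said. The p-values of the main tests set differences between groups against the spread between libraries, estimated over all 4 groups together. They reach no further than these samples, and part of that spread may be technical.

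As background, open regions are promoters, where transcription starts, and enhancers and other control elements, where transcription factors bind. Genes that set the identity of a cell type often lie in stretches with many such elements, and elements of 1 stretch can be open in different cell types. The name cMoP stands in the field for a progenitor committed to monocytes, and proNeu1 and proNeu2 for an earlier and a later progenitor of neutrophils. The name GMP-MoP is kept as the labels give it.

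Promoter sequences are shown for 7 genes of the clusters on which the results below turn. S100a9, S100a8, S100a4 and S100a6 lie in 1 cluster in which promoters went in opposite directions. Taok3, Zfp385a and Aim2 stand for clusters in which the promoter can be set beside inner regions that changed. Each sequence is the RefSeq window from 250 bases before to 50 after the start of the gene on build GRCm38.p6, printed 5′ to 3′ on the strand of the gene. Every window overlapped an accessible region of its cluster. Capitals mark matches on either strand to 3 letter strings: GAGGAAGT for PU.1, TTNCNNAA for C/EBP and TGTGGT for RUNX.
S100a9, chr3:90695672-90695971, minus strand: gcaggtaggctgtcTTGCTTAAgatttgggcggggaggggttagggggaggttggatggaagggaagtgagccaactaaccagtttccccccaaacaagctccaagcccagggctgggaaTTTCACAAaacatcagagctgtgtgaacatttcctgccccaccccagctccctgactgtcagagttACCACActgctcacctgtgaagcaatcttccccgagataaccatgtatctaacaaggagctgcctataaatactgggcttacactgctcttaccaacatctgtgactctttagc
S100a8, chr3:90668821-90669120, plus strand: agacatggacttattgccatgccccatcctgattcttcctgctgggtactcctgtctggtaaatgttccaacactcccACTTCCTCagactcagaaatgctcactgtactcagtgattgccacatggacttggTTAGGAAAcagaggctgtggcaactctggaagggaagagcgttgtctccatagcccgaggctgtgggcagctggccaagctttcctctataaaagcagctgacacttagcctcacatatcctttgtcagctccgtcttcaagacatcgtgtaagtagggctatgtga
S100a4, chr3:90603520-90603819, plus strand: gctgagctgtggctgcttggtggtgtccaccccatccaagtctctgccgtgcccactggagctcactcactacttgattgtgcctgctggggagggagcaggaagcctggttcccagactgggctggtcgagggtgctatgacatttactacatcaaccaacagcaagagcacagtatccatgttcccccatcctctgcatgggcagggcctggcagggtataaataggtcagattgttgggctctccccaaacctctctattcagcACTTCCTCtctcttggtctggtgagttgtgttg
S100a6, chr3:90612644-90612943, plus strand: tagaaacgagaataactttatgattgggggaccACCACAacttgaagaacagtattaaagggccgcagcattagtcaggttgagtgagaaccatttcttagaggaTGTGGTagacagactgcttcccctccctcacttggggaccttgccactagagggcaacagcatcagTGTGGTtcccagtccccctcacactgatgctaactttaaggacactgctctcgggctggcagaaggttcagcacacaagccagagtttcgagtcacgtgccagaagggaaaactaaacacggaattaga
Taok3, chr5:117119879-117120178, plus strand: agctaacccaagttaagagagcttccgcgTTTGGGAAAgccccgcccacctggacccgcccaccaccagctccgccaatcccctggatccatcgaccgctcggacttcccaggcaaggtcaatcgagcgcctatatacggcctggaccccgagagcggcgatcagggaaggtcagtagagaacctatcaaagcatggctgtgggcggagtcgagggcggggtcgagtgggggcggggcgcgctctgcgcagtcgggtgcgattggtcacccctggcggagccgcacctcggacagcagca
Zfp385a, chr15:103334289-103334588, minus strand: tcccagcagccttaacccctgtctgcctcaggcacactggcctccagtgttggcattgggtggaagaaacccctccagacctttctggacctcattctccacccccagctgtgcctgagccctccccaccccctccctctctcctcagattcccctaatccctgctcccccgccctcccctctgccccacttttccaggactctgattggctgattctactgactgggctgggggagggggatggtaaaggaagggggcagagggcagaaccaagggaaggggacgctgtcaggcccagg
Aim2, chr1:173420354-173420653, plus strand: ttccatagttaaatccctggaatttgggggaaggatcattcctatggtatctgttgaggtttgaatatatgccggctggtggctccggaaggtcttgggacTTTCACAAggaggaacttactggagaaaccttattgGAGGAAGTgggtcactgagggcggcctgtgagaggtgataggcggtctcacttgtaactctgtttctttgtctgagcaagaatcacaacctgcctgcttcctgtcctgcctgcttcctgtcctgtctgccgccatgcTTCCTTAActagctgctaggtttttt

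The S100a9 window held 2 C/EBP matches and 1 RUNX match, and the S100a8 window 1 PU.1 and 1 C/EBP match. The S100a4 window held 1 PU.1 match, and the S100a6 window 3 RUNX matches. Taok3 had 2 C/EBP matches, Aim2 had 1 PU.1 and 2 C/EBP matches, and Zfp385a had none. PU.1, C/EBP and RUNX proteins are transcription factors of myeloid cells, and a match of letters is a description, not a bound site. The PU.1 letters were in 3.13% of all 21238 distinct RefSeq windows, in 3.31% of the 11660 windows that overlap any accessible region, and in 10 of the 105 windows that overlap a region of a dense cluster (9.52%). For C/EBP the shares were 37.3%, 29.9% and 37.1% in the same order, and for RUNX 15%, 12.2% and 11.4%. Strings for AP-1 (TGANTCA), IRF and ETS (CCGGAAGT, which shares its last letters with the PU.1 string) were in 5.71%, 2.86% and 5.71% of the 105 windows and had no match in the 7 printed ones. Of 156 genes that overlap a dense cluster, 126 had a window in the table.

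The libraries held between 1388525 and 1907810 reads in all regions, and a region of a dense cluster held a median of 15 to 20 reads, depending on the library. Levels are CPM (counts per 1e6 reads after TMM scaling of the libraries), always given for replicates 1 and 2 in that order. The labels were checked against regions near marker genes. Regions nearest 7 granulocyte genes, among them S100a8 and S100a9 of the clusters, summed to 205 to 211 CPM in cMoP, 299 to 306 in GMP-MoP, 665 to 701 in proNeu1 and 817 to 823 in proNeu2. Regions nearest 5 monocyte genes ran the other way, at 458 to 495, 404 to 450, 298 to 299 and 269 to 279 CPM. Markers of T and NK cells had 3 regions, near 2 of 4 genes, with 20.8 to 23.8 CPM in cMoP, 9.09 to 14.2 in GMP-MoP, 1.31 to 2.05 in proNeu1 and 2.93 to 3.20 in proNeu2; the defining genes Cd3e and Cd3g had no region. Over all 8 libraries, the summed level ran from 46.1 to 72.3 CPM for B cell markers (none near Cd79a), from 82.4 to 105 for erythroid markers and from 23.4 to 39.2 for mast cell markers. The part of other cells in the results below was not tested. In bulk libraries, fewer cells with an open region and a less open region in every cell cannot be told apart.

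The clusters had a median of 13 regions, from 12 to 24, and spanned a median of 69.9 kb, from 46.2 to 132 kb. The median gap between neighbours within a dense cluster was 4651 bp, against 11577 bp between all neighbouring regions. The clusters held a median of 2 genes, from 0 to 15: 26 held a single gene, 24 held 2 to 4, 8 held 5 or more and 4 held none. Of the listed gene groups, dense clusters held 2 of 24 genes of later granules and neutrophil maturation, 3 of 37 myeloid transcription factors, 1 of 21 cytokine and chemokine receptors (Tnfrsf1b) and 1 of 19 actin and adhesion genes (Selplg). They held 0 of 24 monocyte and macrophage genes, 0 of 10 primary granule genes, 0 of 18 stem and early progenitor genes, 0 of 19 inflammatory genes and 0 of 18 dendritic cell and antigen presentation genes, and none of the lists for B, T and NK, erythroid or mast cells. Dense clusters overlapped only 156 protein-coding genes in all, so few genes of any list could lie in them. These counts were not tested and are not read as a lack of any group. Of the member regions, 10.3% overlapped a promoter window, 49.1% lay in a gene body and 40.6% outside genes. For regions that stand alone these shares were 19.4%, 42.8% and 37.7%. Member regions had a median width of 898 bp and a median level of 10.3 CPM, against 823 bp and 6.67 CPM for lone ones. Groups of 2 to 5 and of 6 to 11 regions lay between, at 829 and 860 bp and 7.94 and 9.77 CPM. A single region held a median of 23.8% of the reads of its cluster, from 11.2% to 49.4%. At the edge of the rule, 41 groups of 11 regions had a median level of 10.8 CPM and a median width of 860 bp, and 28 groups of 12 had 9.55 CPM and 862 bp.

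Dense clusters took 1.40% to 1.50% of the reads of each library. The share was 1.41% ± 0.01 in cMoP, 1.41% ± 0.00 in GMP-MoP, 1.46% ± 0.03 in proNeu1 and 1.49% ± 0.01 in proNeu2 (mean ± SD, n = 2). An exact two-sided permutation test gave 0.333 for each of 4 comparisons, which is the smallest p that 2 against 2 libraries allow. The summed level was highest in proNeu2 for 31 clusters, in cMoP for 17, in proNeu1 for 9 and in GMP-MoP for 5. This ranking used TMM-scaled means only, and no share over all joined groups was counted. No cluster sum was called between proNeu2 and proNeu1.

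Most dense clusters held regions that changed between proNeu1 and cMoP, and in 56 of the 62 the changes within a cluster were unequal. Of the 843 member regions, 735 had enough reads to be tested. In proNeu1 against cMoP, 171 were higher and 124 lower, 40.1% of those tested, beside 42.4% of all 47506 tested regions in the genome (20.5% higher and 21.9% lower). The call was an adjusted p under 0.05 in edgeR's quasi-likelihood test with Benjamini-Hochberg adjustment over all tested regions. The median log2 change of tested members was 0.17, against 0.02 over all regions. Scaling by total counts moved the median of all regions in this comparison by -0.08. It called 280 members, and the lean to higher calls was smaller. With intensity-dependent (loess) scaling 272 were called, and the lean to higher calls remained. Splits by position under these scalings are given below. In GMP-MoP against proNeu1, 56 members were higher and 102 lower, 21.5% beside 24.1% of all regions (11.6% higher and 12.4% lower), with a median log2 change of -0.12 against 0.01. With scaling by total counts, which moved the median of all regions in this comparison by 0.11, the split was 74 higher and 75 lower. The 158 calls became 97 without proNeu1 replicate 2 and 79 without GMP-MoP replicate 2. In GMP-MoP against cMoP, 14 were higher and 22 lower, 4.90% beside 5.46% (1.97% higher and 3.49% lower), with 15 and 17 by total counts and 19 and 15 by intensity-dependent (loess) scaling. These 36 calls became 17 to 20 when either library of cMoP or of GMP-MoP was left out. The comparisons share the proNeu1, cMoP or GMP-MoP libraries between them and are not independent.

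Sums over all regions of a cluster were tested as well. Tested beside all 27685 joined groups of the genome, single regions included, 19 of the 62 cluster sums were higher and 11 lower in proNeu1 against cMoP, beside 46.1% called in the genome (21.6% higher and 24.5% lower). The split depends on the scaling: it was 16 higher and 14 lower by total counts, 20 and 14 with the loess scaling of the regions carried to the sums, and 6 and 32 with a loess scaling fitted on the sums themselves. In GMP-MoP against proNeu1, 5 sums were higher and 20 lower, beside 29.5% (14.5% higher and 15.1% lower). By total counts 7 were higher and 13 lower, with loess scaling carried from the regions 6 and 16, and with loess scaling of the sums 24 and 6. There were 12 calls without proNeu1 replicate 2 and 12 without GMP-MoP replicate 2. In GMP-MoP against cMoP, 1 was higher and 2 lower, beside 6.73% (2.28% higher and 4.45% lower); no call was left without cMoP replicate 1, and 1 was left without cMoP replicate 2, without proNeu2 replicate 1 or without proNeu2 replicate 2. A test of whether the regions of a group share 1 log2 change, run over 10231 groups with 2 or more tested regions, called 56 of the 62 dense clusters in proNeu1 against cMoP, beside 44.6% of all groups. It called 47 in GMP-MoP against proNeu1, beside 19.9%, with 29 left without proNeu1 replicate 1 and 30 without GMP-MoP replicate 2. In GMP-MoP against cMoP it called 18, beside 5.94%, with 8 to 10 left when either library of cMoP or of GMP-MoP was left out. Such calls went with the number of regions in a group: in proNeu1 against cMoP the test called 40.8% of groups of 2 to 5 regions, 75.6% of groups of 6 to 11 and 90.3% of dense clusters, while single regions were called in 42.6%, 41.6% and 40.1% of the same sets and in 42.6% of lone regions. The plot of calls by group size shows both measures for the 3 comparisons.

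**Figure D1:**
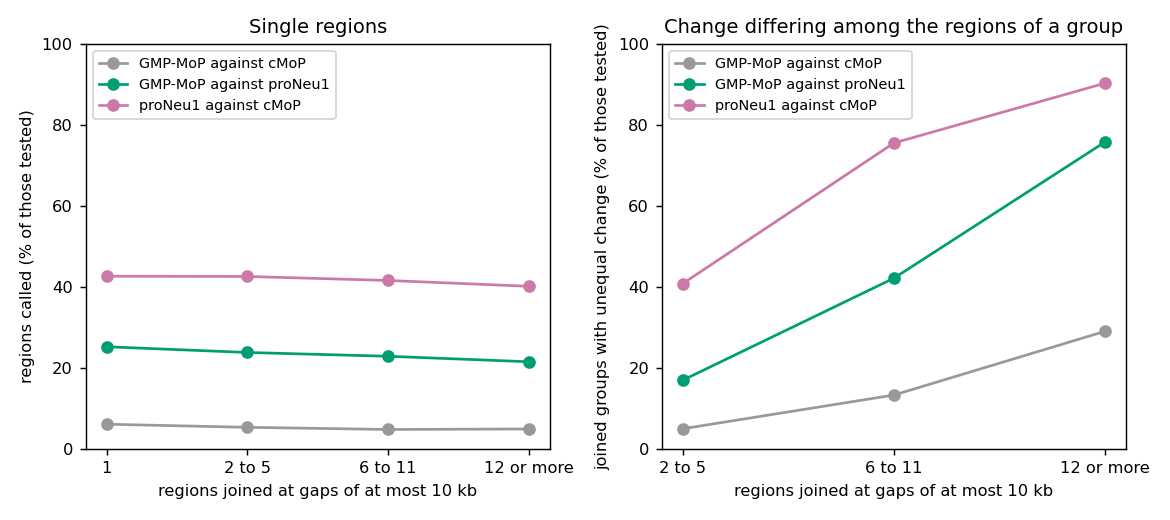
The left panel plots the percent of tested regions called (adjusted p under 0.05) against the number of regions joined, and the right panel the percent of joined groups whose regions changed unequally, for 3 comparisons in colour. In proNeu1 against cMoP the left line lies between 42.6% and 40.1%, while the right line goes from 40.8% for groups of 2 to 5 to 90.3% for groups of 12 or more.

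In proNeu1 against cMoP, 43 clusters held called regions of both directions, 10 only higher ones, 7 only lower ones and 2 none. Of the clusters with unequal change, 28 were not called on their sum. Such shares were not counted over all joined groups. Over all tested regions 20.5% were higher and 21.9% lower, and a dense cluster had a median of 11 tested regions. The count of 43 is therefore not read as a trait of dense clusters. Member regions at promoters were mostly higher where called: of 86 tested member regions at promoters 36 were higher and 6 lower, of 356 in gene bodies 78 were higher and 69 lower, and of 293 outside genes 57 were higher and 49 lower. Over the genome, 3303 promoters were higher and 623 lower of 9112 (36.2% and 6.84%, against 41.9% and 6.98% of member promoters). Regions in gene bodies over the genome had 3865 higher and 5043 lower, and regions outside genes 2581 and 4736. With TMM scaling, lower calls were thus the more numerous over the genome and higher calls among the members. These differences were not tested, and the lean among members depends on the scaling. By total counts, members had 64 higher and 74 lower in gene bodies and 51 and 54 outside genes. With DESeq2 size factors these were 67 and 71, and 52 and 53. With loess scaling they were 85 and 56, and 70 and 40. By total counts, 30 member promoters were higher and 7 lower, and with DESeq2 size factors 30 and 6. The DESeq2 test called 12 higher and 3 lower. With loess scaling, 13 were higher and 8 lower, so the lean was smaller there, and why was not tested. Between GMP-MoP and proNeu1, 1 member promoter was higher in GMP-MoP and 27 were lower (32.6% called), near the 30.3% of all promoters, of which 322 were higher and 2436 lower. With loess scaling 3 member promoters were higher and 13 lower. Where neighbouring members were both called in proNeu1 against cMoP, 74 of 106 pairs (69.8%) had the same direction, beside 2931 of 3746 pairs (78.2%) over all joined groups; the difference between these shares was not tested.

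**Figure D2:**
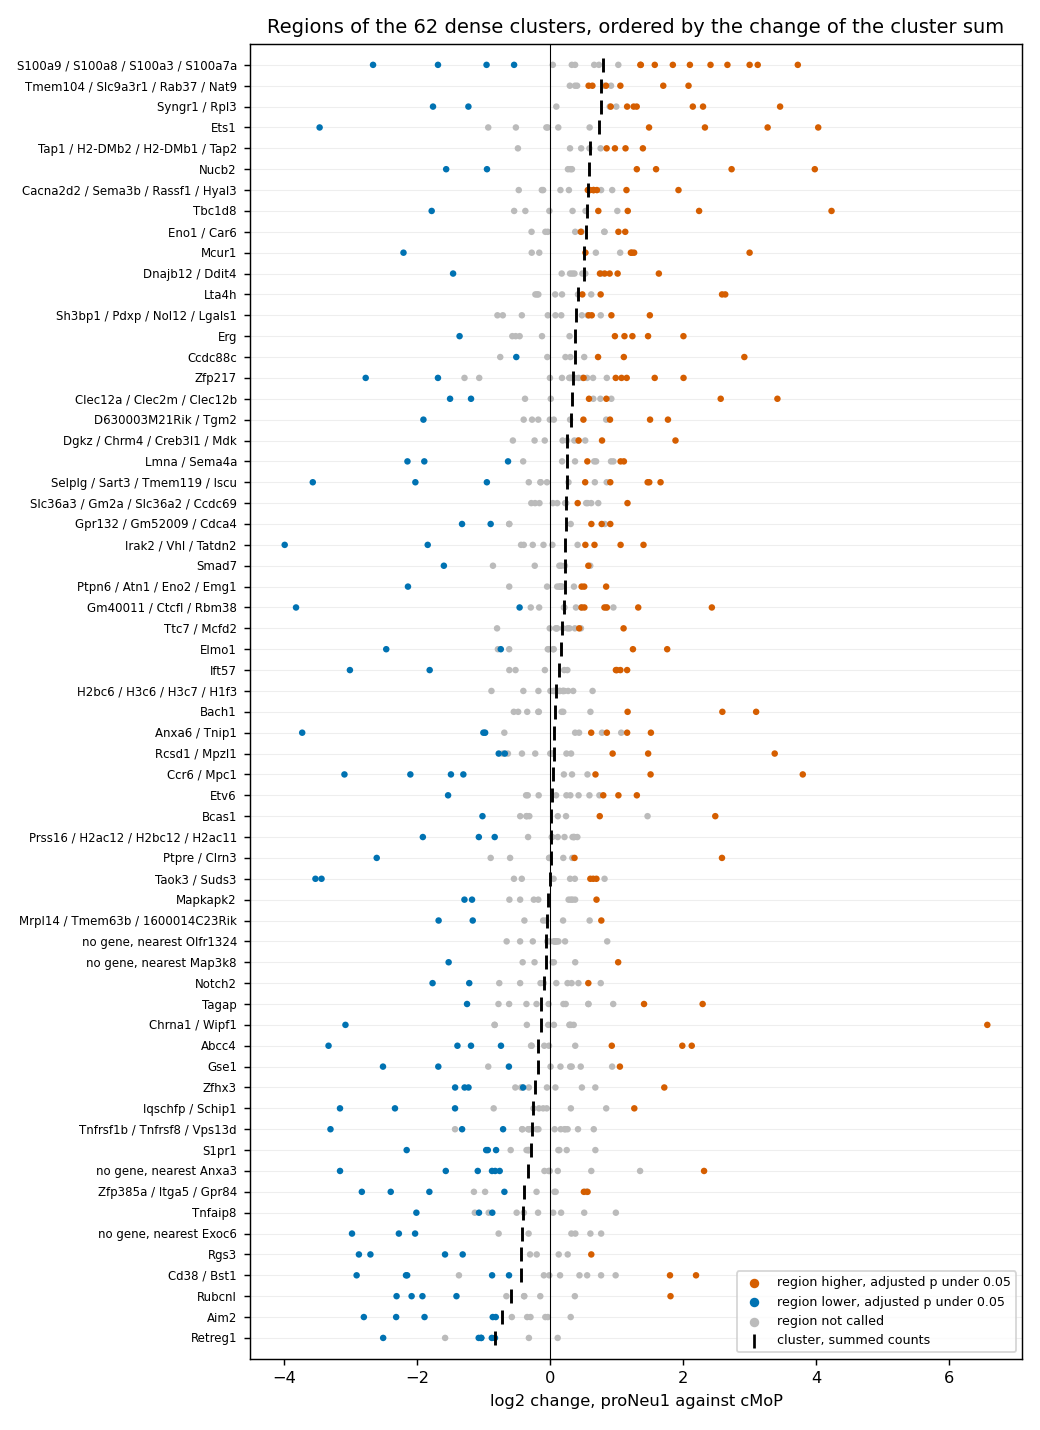
Each row is 1 of the 62 dense clusters, named by its genes and ordered by the log2 change of its summed reads (black bar), and each point is the log2 change of 1 tested region in proNeu1 against cMoP on the horizontal axis, coloured where called at an adjusted p under 0.05. The S100 cluster at the top and Retreg1 at the bottom have sums of 0.79 and -0.82, and in 43 rows higher and lower calls stand side by side; the point of the Chrna1 and Wipf1 cluster at the far right had 0 reads in cMoP, so its position depends on the fit.

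The cluster with most regions lay on the S100 genes of chromosome 3, which encode small calcium-binding proteins. Its 24 regions at chr3:90578306-90710646 span 132 kb and the genes S100a2 to S100a9 and S100a7a. S100a8 and S100a9 form calprotectin, an abundant protein of neutrophils, and were the only genes of the list of later granule and neutrophil maturation in a dense cluster. The cluster sum was 254 and 237 CPM in cMoP, 217 and 248 in GMP-MoP, 436 and 412 in proNeu1, and 449 and 445 in proNeu2. Both proNeu groups were above cMoP and GMP-MoP, with no overlap, and cMoP and GMP-MoP overlapped. The log2 change of the sum was 0.79 ± 0.11, adjusted p = 1.76e-10, for proNeu1 against cMoP and -0.86 ± 0.11, adjusted p = 1.6e-10, for GMP-MoP against proNeu1. Within the cluster, 10 regions were higher and 4 lower in proNeu1 against cMoP, and the changes were unequal (adjusted p = 6.85e-44, the smallest of all clusters).

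The region over the S100a9 promoter (chr3:90695381-90696322) had 4.66 and 3.05 CPM in cMoP, 5.59 and 5.45 in GMP-MoP, 53.9 and 49.6 in proNeu1, and 57.9 and 66.4 in proNeu2. The proNeu libraries lay at 49.6 to 66.4 CPM and the others at 3.05 to 5.59 CPM. Its log2 change was 3.72 ± 0.31, adjusted p = 8.87e-25, for proNeu1 against cMoP and -3.21 ± 0.30, adjusted p = 8.48e-19, for GMP-MoP against proNeu1. At the S100a8 promoter (chr3:90668526-90669606), whose window holds the PU.1 and C/EBP letters shown above, levels were 19.2 and 22.9 CPM in cMoP, 23.1 and 26.7 in GMP-MoP, 63.4 and 62 in proNeu1, and 73.2 and 88.2 in proNeu2. There the cMoP and GMP-MoP libraries lay at 19.2 to 26.7 CPM, with both GMP-MoP libraries just above those of cMoP, and the proNeu libraries at 62 to 88.2 CPM. The log2 change was 1.57 ± 0.21, adjusted p = 1.54e-11, for proNeu1 against cMoP and -1.32 ± 0.21, adjusted p = 1.11e-07, for GMP-MoP against proNeu1.

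Regions around these promoters rose as well. A region upstream of S100a8 (chr3:90659032-90660287) had 5.18 and 4.06 CPM in cMoP, 14 and 15.3 in GMP-MoP, 47 and 34.6 in proNeu1, and 54.4 and 49.2 in proNeu2. There GMP-MoP lay between cMoP and proNeu1, with no overlap: the log2 change was 3.12 ± 0.31, adjusted p = 3.75e-18, for proNeu1 against cMoP and -1.47 ± 0.25, adjusted p = 1.7e-06, for GMP-MoP against proNeu1. For GMP-MoP against cMoP it was 1.65 ± 0.38, adjusted p = 0.00201, a call lost without cMoP replicate 2 (adjusted p = 0.0574), without GMP-MoP replicate 2 (0.0514) and with DESeq2 (0.144). The regions chr3:90678343-90679264 and chr3:90686477-90687480, between S100a8 and S100a9, rose by 2.66 ± 0.44 and 1.84 ± 0.26 (log2 ± SE) in proNeu1 against cMoP. Of the 8 regions nearest to S100a8 or S100a9, all tested, 5 were higher in proNeu1 than in cMoP and none lower (20.5% and 21.9% of all tested regions), and 4 were lower in GMP-MoP than in proNeu1 (12.4%).

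The left end of the cluster, over S100a3, S100a4 and S100a6, held the 4 regions that were lower in proNeu1. The first of them held 18 reads in cMoP against 2 in proNeu1. Its call was lost with loess scaling (adjusted p = 0.557), with DESeq2 (0.134) and without cMoP replicate 1 or either proNeu1 library. The S100a3 promoter call against cMoP was lost with DESeq2 (0.169), without a filter (0.0517), without the proNeu2 group (0.0535) and without either library of cMoP or of proNeu1. At the S100a4 promoter (chr3:90603427-90604976) levels were 28 and 23.9 CPM in cMoP, 11.2 and 18.5 in GMP-MoP, 4.77 and 11.1 in proNeu1, and 8.78 and 5.75 in proNeu2, and the log2 change in proNeu1 against cMoP was -1.69 ± 0.32, adjusted p = 3.25e-06. The cMoP libraries were the highest, and GMP-MoP lay between cMoP and both proNeu groups with its lower library (11.2 CPM) close to the higher proNeu1 library (11.1 CPM). At the S100a6 promoter (chr3:90612329-90613272) levels were 34.7 and 34 CPM in cMoP, 15.4 and 16.9 in GMP-MoP, 19.8 and 15.7 in proNeu1, and 14 and 18.5 in proNeu2. Here cMoP stood alone above the 3 other groups, which overlapped: the log2 change was -0.96 ± 0.25, adjusted p = 0.000674, for proNeu1 against cMoP and -1.08 ± 0.25, adjusted p = 0.00157, for GMP-MoP against cMoP, the latter not called by DESeq2 (0.323). The S100a3 promoter (chr3:90586589-90587709) was likewise lower in GMP-MoP than in cMoP (-1.16 ± 0.22, adjusted p = 8.79e-05; 0.0714 without GMP-MoP replicate 2 and 0.0933 with DESeq2). Amid these falling promoters, a region in the body of S100a3 (chr3:90589035-90590127) rose, with 5.70 and 8.64 CPM in cMoP, 8.39 and 12 in GMP-MoP, 37.5 and 24.8 in proNeu1, and 38.6 and 32.6 in proNeu2; its log2 change in proNeu1 against cMoP was 2.10 ± 0.30, adjusted p = 9.03e-10. The plot of the S100 cluster shows the cMoP peaks on the left and the proNeu peaks on the right.

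**Figure D3:**
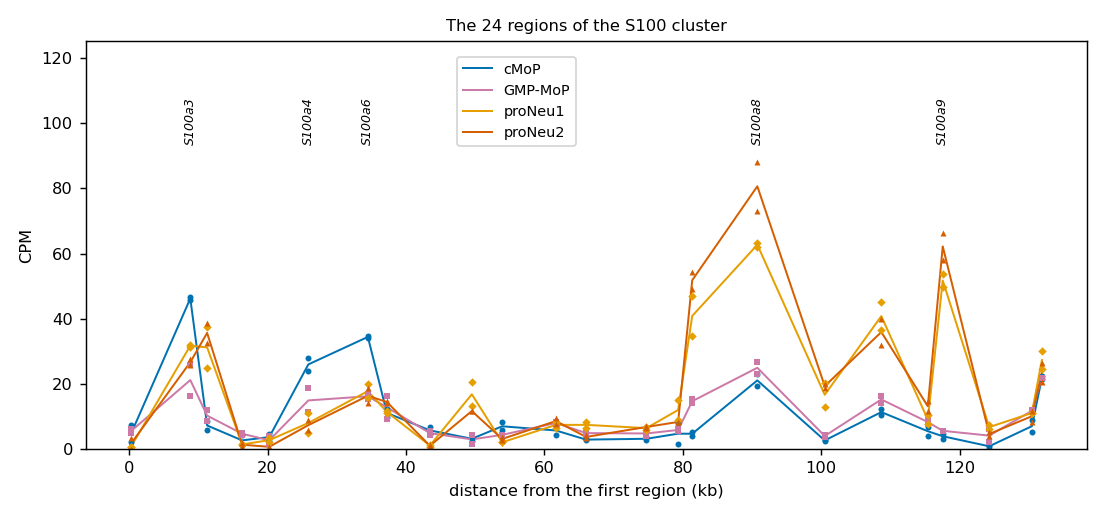
The level in CPM (vertical axis) of the 24 regions of the S100 cluster is plotted against distance from the first region in kb, with points for single libraries and lines for the means of the 4 groups (n = 2), and names at the promoters. The cMoP line is highest at S100a3, S100a4 and S100a6, and the proNeu lines are highest at S100a8 and S100a9, where GMP-MoP stays near cMoP.

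Of 37 listed myeloid transcription factor genes, 3 lay in dense clusters, each alone in its cluster: Ets1, Erg and Etv6, of the ETS family, whose members bind a GGAA core. Of the 39 regions nearest these genes 35 were tested; 12 were higher and 3 lower in proNeu1 against cMoP, 3 were higher and 6 lower in GMP-MoP against proNeu1, and 4 were higher in GMP-MoP than in cMoP. Over all tested regions 42.4%, 24.1% and 5.46% were called in these comparisons, so the first and second counts are near the background. All 4 calls between GMP-MoP and cMoP lay in the Ets1 cluster. Of these, chr9:32653404-32655593 was lost without cMoP replicate 2 (adjusted p = 0.157), without GMP-MoP replicate 1 (0.214) and with DESeq2 (0.497), and chr9:32656700-32657347 with DESeq2 (0.527) and when cMoP replicate 1 (0.162), cMoP replicate 2 (0.103) or GMP-MoP replicate 2 (0.36) was left out.

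The Ets1 cluster (chr9:32652091-32720748, 13 regions in the gene body) was the only one called higher on its sum in GMP-MoP than in cMoP. Its sums were 130.1 and 144 CPM in cMoP, 195 and 196 in GMP-MoP, 229.7 and 225 in proNeu1, and 225 and 206 in proNeu2. The cMoP libraries were the lowest and GMP-MoP lay between them and proNeu1, with no overlap. The log2 change of the sum was 0.73 ± 0.12, adjusted p = 9.2e-08, for proNeu1 against cMoP and 0.51 ± 0.12, adjusted p = 0.00208, for GMP-MoP against cMoP, the latter lost without cMoP replicate 1 (adjusted p = 0.0816) and with DESeq2 (0.112). The regions changed unequally in both comparisons (adjusted p = 6.44e-27 and 9.02e-10).

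A region of the Ets1 body 59.9 kb from the first (chr9:32711943-32713044) had 1.55 and 3.56 CPM in cMoP, 22.4 and 24 in GMP-MoP, 42.9 and 43.1 in proNeu1, and 52.7 and 40.3 in proNeu2. It was nearly closed in cMoP, open in GMP-MoP and more open in the proNeu groups, with no overlap between these 3 levels. The log2 change was 4.03 ± 0.35, adjusted p = 5.77e-23, for proNeu1 against cMoP, 3.14 ± 0.39, adjusted p = 5.61e-10, for GMP-MoP against cMoP, and -0.88 ± 0.23, adjusted p = 0.00162, for GMP-MoP against proNeu1, the last not called by DESeq2 (0.101). Its neighbour (chr9:32705634-32706645) had 2.07 and 4.57 CPM in cMoP, 20.3 and 16.4 in GMP-MoP, 21.8 and 12.4 in proNeu1, and 8.78 and 12.1 in proNeu2, so GMP-MoP overlapped proNeu1 and lay above both cMoP and proNeu2. Its log2 change was 2.42 ± 0.41, adjusted p = 6.54e-06, for GMP-MoP against cMoP and 2.33 ± 0.42, adjusted p = 8.32e-07, for proNeu1 against cMoP. The first region of the cluster (chr9:32652091-32652800) went the other way, with 10.4 and 13.2 CPM in cMoP, 7.69 and 9.27 in GMP-MoP, 0 and 1.96 in proNeu1, and 1.17 and 1.28 in proNeu2: both cMoP and GMP-MoP were above every proNeu library. It held 46 reads in cMoP against 3 in proNeu1, a ratio of 12.4 after scaling (95% counting interval 4.0 to 62.6), and the call had an adjusted p of 9.39e-07. The strongest region of the cluster (chr9:32695378-32696615) had 57 and 59.4 CPM in cMoP, 70.6 and 55.1 in GMP-MoP, 63.4 and 63.3 in proNeu1, and 61.5 and 52.4 in proNeu2. It was not called in the 4 comparisons, although both proNeu1 libraries were above those of cMoP and proNeu2.

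In the Erg cluster (chr16:95401686-95465296, 13 regions), 5 regions were higher and 1 lower in proNeu1 against cMoP, and the sum rose by 0.38 ± 0.12 (log2 ± SE, adjusted p = 0.00712). That call was lost without cMoP replicate 2 (0.0956), without proNeu1 replicate 1 (0.104), with DESeq2 (0.0987) and with loess scaling of the sums (0.696). The region chr16:95464194-95465296, past the Erg promoter, had 28 and 16.8 CPM in cMoP, 28 and 21.8 in GMP-MoP, 54.5 and 50.9 in proNeu1, and 59.1 and 47.3 in proNeu2. The proNeu libraries, at 47.3 to 59.1 CPM, were all above the others, at 16.8 to 28.0 CPM, and the log2 change was 1.24 ± 0.21, adjusted p = 2.49e-07, for proNeu1 against cMoP and -1.10 ± 0.22, adjusted p = 2.87e-05, for GMP-MoP against proNeu1. The region chr16:95438925-95440338 fell in the same comparison (-1.36 ± 0.31, adjusted p = 0.000116), with 24.9 and 23.4 CPM in cMoP, 11.2 and 16.4 in GMP-MoP, 8.86 and 9.79 in proNeu1, and 7.02 and 9.58 in proNeu2. In the Etv6 cluster (chr6:134095374-134172840, 13 regions) the sum did not pass the test (0.03 ± 0.11, adjusted p = 0.873), but its regions changed unequally (adjusted p = 2.08e-06). There chr6:134155934-134156938 fell, with 25.4 and 29 CPM in cMoP, 20.3 and 20.7 in GMP-MoP, 8.18 and 10.4 in proNeu1, and 5.27 and 5.11 in proNeu2 and a log2 change of -1.53 ± 0.30, adjusted p = 7.08e-06, in proNeu1 against cMoP, and the cMoP and GMP-MoP libraries were all above the proNeu libraries.

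Receptor and adhesion genes gave the next set. Tnfrsf1b encodes the second receptor for tumour necrosis factor, and it shares a cluster of 20 regions (chr4:145194169-145300978) with Tnfrsf8 and Vps13d. The region over the Tnfrsf1b promoter (chr4:145245991-145247429) had 40.4 and 38.1 CPM in cMoP, 37.1 and 54 in GMP-MoP, 48.4 and 43.7 in proNeu1, and 59.1 and 44.7 in proNeu2. GMP-MoP overlapped every other group, both proNeu groups lay above cMoP, and the region was not called in the 4 comparisons. A region in the gene body (chr4:145233295-145234613) had 76.2 and 56.9 CPM in cMoP, 51 and 46.9 in GMP-MoP, 8.18 and 5.22 in proNeu1, and 2.93 and 3.83 in proNeu2. The cMoP and GMP-MoP libraries lay at 46.9 to 76.2 CPM and the proNeu libraries at 2.93 to 8.18 CPM, and the log2 change was -3.30 ± 0.27, adjusted p = 9.07e-25, for proNeu1 against cMoP and 2.86 ± 0.29, adjusted p = 9.58e-16, for GMP-MoP against proNeu1. The last region of the cluster, in the body of Tnfrsf8 (chr4:145299845-145300978), also fell (-1.32 ± 0.23, adjusted p = 2.55e-07, in proNeu1 against cMoP), while 16 of the 19 tested regions of the cluster were not called in that comparison. Of the 9 tested regions nearest Tnfrsf1b itself, 1 was lower and none higher, where 42.4% of all tested regions were called. The regions changed unequally (adjusted p = 2.6e-20).

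Selplg encodes PSGL-1, the ligand through which leukocytes bind selectins, and Coro1c, whose body reaches into the same cluster (chr5:113761392-113842536), encodes a coronin that binds actin. Beyond Selplg, a region outside genes (chr5:113836704-113837661) had 32.1 and 33.5 CPM in cMoP, 5.59 and 10.4 in GMP-MoP, 8.18 and 7.83 in proNeu1, and 3.51 and 5.11 in proNeu2. Here cMoP stood alone at 32.1 to 33.5 CPM, and the libraries of the other 3 groups lay at 3.51 to 10.4 CPM. GMP-MoP and proNeu1 overlapped, and proNeu2 was below both. The log2 change was -1.98 ± 0.30, adjusted p = 2.35e-07, for GMP-MoP against cMoP and -2.03 ± 0.30, adjusted p = 4.35e-09, for proNeu1 against cMoP. The next region, in Coro1c (chr5:113841468-113842536), had 17.1 and 12.2 CPM in cMoP, 21 and 20.7 in GMP-MoP, 46.4 and 46.3 in proNeu1, and 49.7 and 51.8 in proNeu2 and rose by 1.66 ± 0.24 (log2 ± SE, adjusted p = 4.91e-10) in proNeu1 against cMoP, so neighbours moved in opposite directions. Of the 6 regions nearest Selplg, 1 was higher and 2 lower in proNeu1 against cMoP, close to the 42.4% called over all regions.

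Cd38 and Bst1 are neighbouring genes for related enzymes on the cell surface that consume NAD. In their cluster (chr5:43799443-43894603, 16 regions), 2 regions were higher and 5 lower in proNeu1 against cMoP. The body of Cd38 held the region chr5:43881736-43882731, with 23.3 and 34 CPM in cMoP, 21 and 21.8 in GMP-MoP, 6.14 and 6.53 in proNeu1, and 3.51 and 4.47 in proNeu2. Its cMoP and GMP-MoP libraries lay at 21 to 34.0 CPM and its proNeu libraries at 3.51 to 6.53 CPM, and the log2 change was -2.17 ± 0.33, adjusted p = 5.59e-09, for proNeu1 against cMoP and 1.75 ± 0.36, adjusted p = 6.16e-05, for GMP-MoP against proNeu1. Between the 2 genes, chr5:43847434-43848811 fell, with a log2 change of -2.91 ± 0.44, and chr5:43853116-43854625 rose, with 2.19 ± 0.44 (± SE), in proNeu1 against cMoP. The sum of the cluster was lower in proNeu1 (-0.44 ± 0.13, adjusted p = 0.00254), a call lost without cMoP replicate 2 (adjusted p = 0.133), without proNeu1 replicate 1 (0.131) and with loess scaling carried from the regions (0.0848).

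Several clusters held strong changes of single regions, hidden in the sum in some and beside a called sum in others. The clearest was the cluster of Taok3, a protein kinase, and Suds3, a part of a histone deacetylase complex (chr5:117115695-117182129, 12 regions). Its sum was 286 and 278 CPM in cMoP, 275 and 249 in GMP-MoP, 277 and 283 in proNeu1, and 277 and 272 in proNeu2, the proNeu1 libraries overlapped those of cMoP, and the log2 change was -0.01 ± 0.11, adjusted p = 0.958, for proNeu1 against cMoP. Its regions nevertheless changed unequally (adjusted p = 9.09e-28). A region in the Taok3 body (chr5:117158280-117160394) had 67.4 and 65 CPM in cMoP, 41.2 and 40.9 in GMP-MoP, 4.09 and 7.18 in proNeu1, and 8.19 and 7.03 in proNeu2. It was highest in cMoP, lower in GMP-MoP and lowest in the proNeu groups, with no overlap between these levels; the log2 change was -3.53 ± 0.28, adjusted p = 4.26e-26, for proNeu1 against cMoP and 2.84 ± 0.31, adjusted p = 5.2e-14, for GMP-MoP against proNeu1. Further into the gene, chr5:117170841-117171651 held 31 reads in cMoP against 2 in proNeu1, a ratio of 12.6 after scaling (95% counting interval 3.20 to 108), at an adjusted p of 0.00016 (0.105 with loess scaling). The Taok3 promoter (chr5:117119604-117120581) rose instead, with 73.1 and 71.6 CPM in cMoP, 76.9 and 62.2 in GMP-MoP, 104 and 116 in proNeu1, and 98.3 and 105 in proNeu2 and log2 changes of 0.60 ± 0.15, adjusted p = 0.000301, for proNeu1 against cMoP and -0.67 ± 0.15, adjusted p = 0.000309, for GMP-MoP against proNeu1. Both calls at the promoter were lost with loess scaling, at adjusted p of 0.178 and 0.0525.

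The cluster of Zfp385a, a zinc finger protein, Itga5, an integrin chain that binds fibronectin, and Gpr84, a receptor for fatty acids, lay at chr15:103304794-103389122. Its sum was called in proNeu1 against cMoP (adjusted p = 0.00189 in edgeR's quasi-likelihood test). Its strongest change was at a promoter of Zfp385a (chr15:103332861-103334366), with 64.8 and 54.9 CPM in cMoP, 43.3 and 33.8 in GMP-MoP, 9.54 and 7.18 in proNeu1, and 14 and 13.4 in proNeu2. The cMoP and GMP-MoP libraries lay at 33.8 to 64.8 CPM and the proNeu libraries at 7.18 to 14 CPM. Here the log2 change was -2.83 ± 0.26, adjusted p = 2.7e-20, for proNeu1 against cMoP and 2.18 ± 0.29, adjusted p = 6.13e-10, for GMP-MoP against proNeu1. A region outside Itga5 (chr15:103370143-103371190) followed, with a log2 change of -1.82 ± 0.28, adjusted p = 1.09e-08, in proNeu1 against cMoP, while the Itga5 promoter (chr15:103366061-103367132) was at 20.7 and 19.3 CPM in cMoP, 23.1 and 16.4 in GMP-MoP, 28.6 and 30.0 in proNeu1, and 36.9 and 31.9 in proNeu2 and was not called in the 3 comparisons. The sum was lower in GMP-MoP than in cMoP (-0.37 ± 0.11, adjusted p = 0.0207). That call was lost without either library of cMoP or of proNeu2, and without GMP-MoP replicate 2. It was also lost without a filter (adjusted p = 0.0519) and with DESeq2 (0.21). With only the 2 groups (0.0953) and without the proNeu2 group (0.0595) it was lost as well.

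Nucb2, which encodes the calcium-binding protein nucleobindin, had a cluster at chr7:116475792-116531798 with 2 regions that separate the groups in different ways. The cluster sum was called in edgeR's quasi-likelihood test, with adjusted p = 1.01e-05 for proNeu1 against cMoP and 0.00056 for GMP-MoP against proNeu1. In the gene body, chr7:116514914-116516157 had 1.04 and 2.03 CPM in cMoP, 12.6 and 13.6 in GMP-MoP, 26.6 and 24.2 in proNeu1, and 27.5 and 24.3 in proNeu2. The cMoP libraries were the lowest and the proNeu libraries the highest, with GMP-MoP between and no overlap with either: the log2 change was 3.04 ± 0.51, adjusted p = 6.14e-06, for GMP-MoP against cMoP and 3.98 ± 0.44, adjusted p = 3.25e-15, for proNeu1 against cMoP. Upstream, chr7:116496623-116497363 had 0.518 and 3.56 CPM in cMoP, 0.699 and 0.545 in GMP-MoP, 13.6 and 14.4 in proNeu1, and 11.1 and 11.5 in proNeu2. There GMP-MoP, like cMoP, was low: the region held 42 reads in proNeu1 against 2 in GMP-MoP, a ratio of 21.1 after scaling (95% counting interval 5.49 to 180.0), at an adjusted p of 4.98e-08. The Nucb2 promoter (chr7:116503786-116504926) had reads in all groups, at 72.5 and 70.1 CPM in cMoP, 69.9 and 61.1 in GMP-MoP, 92.7 and 83.6 in proNeu1, and 75.5 and 72.2 in proNeu2.

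Among the clusters with most regions, single regions again changed apart from their neighbours, in some beside a called sum. In proNeu1 against cMoP the Tbc1d8 sum rose by 0.56 ± 0.12 (log2 ± SE, adjusted p = 5.69e-05), with 4 regions higher and 1 lower. In the same edgeR test the sums near Zfp217 and Anxa3 were called (adjusted p = 0.00441 and 0.012). Those of the Rbm38 and Rcsd1 clusters were not (0.0746 and 0.655). In the cluster of Tbc1d8, which encodes a protein with a domain that acts on Rab GTPases (chr1:39408361-39503956), chr1:39449817-39450989 had 0.518 and 3.05 CPM in cMoP, 11.9 and 7.09 in GMP-MoP, 31.4 and 38.5 in proNeu1, and 33.4 and 46.6 in proNeu2. Levels were lowest in cMoP, then GMP-MoP, and highest in proNeu1 and proNeu2, which overlapped, and the log2 change was 4.23 ± 0.40, adjusted p = 6.51e-20, for proNeu1 against cMoP and -1.92 ± 0.29, adjusted p = 6.11e-08, for GMP-MoP against proNeu1. Near Rbm38, an RNA-binding protein, the region chr2:173040590-173041488 of the Gm40011, Ctcfl and Rbm38 cluster had 30.1 and 28.5 CPM in cMoP, 12.6 and 16.4 in GMP-MoP, 2.73 and 1.31 in proNeu1, and 1.76 and 4.47 in proNeu2, with a log2 change of -3.82 ± 0.43, adjusted p = 7.31e-15, in proNeu1 against cMoP. It was 1 of 2 lower regions in a cluster of 16 with 6 higher ones. In the Rcsd1 and Mpzl1 cluster, the first region (chr1:165625957-165627258), in the body of Mpzl1, had 2.59 and 0.508 CPM in cMoP, 2.80 and 1.64 in GMP-MoP, 15.7 and 17.6 in proNeu1, and 24 and 21.1 in proNeu2 and log2 changes of 3.38 ± 0.50, adjusted p = 1.76e-09, for proNeu1 against cMoP and -2.91 ± 0.49, adjusted p = 7.14e-07, for GMP-MoP against proNeu1; the Mpzl1 promoter beside it (chr1:165634057-165635091) was not called, at 61.7 and 72.1 CPM in cMoP, 62.2 and 58.4 in GMP-MoP, 70.2 and 67.2 in proNeu1, and 74.9 and 74.1 in proNeu2. The cluster near Zfp217, a zinc finger protein, had 23 regions (chr2:170147452-170266939), almost all outside genes, of which 6 were higher and 2 lower in proNeu1 against cMoP; chr2:170212290-170213562 rose by 2.00 ± 0.41 and chr2:170239021-170239826 fell by 2.77 ± 0.51 (log2 ± SE). Among the clusters with no gene, that nearest Anxa3, an annexin (chr5:96867110-96936821), had 1 higher and 6 lower regions. Its chr5:96881093-96882152 had 17.6 and 19.3 CPM in cMoP, 8.39 and 12.5 in GMP-MoP, 3.41 and 0.653 in proNeu1, and 1.17 and 2.56 in proNeu2, with a log2 change of -3.16 ± 0.48, adjusted p = 6.49e-09, while its strongest region (chr5:96911224-96913270) was level, at 86.5 and 79.8 CPM in cMoP, 83.9 and 82.4 in GMP-MoP, 84.5 and 80.9 in proNeu1, and 76.7 and 76.7 in proNeu2.

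**Figure D4:**
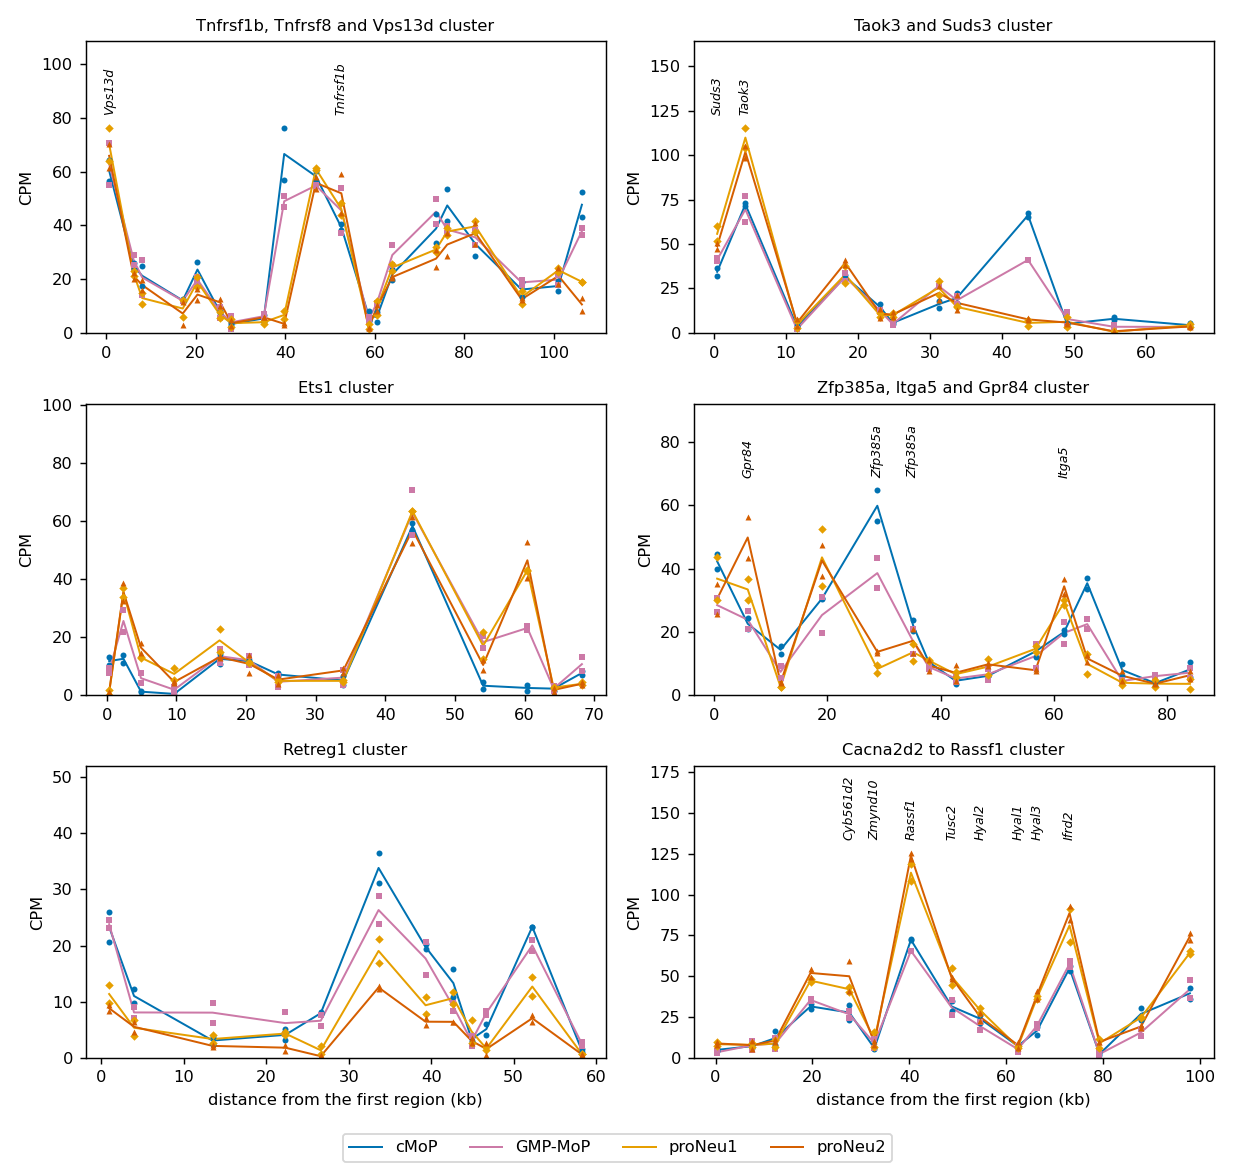
For 6 dense clusters, the level in CPM of each region (vertical axes) is plotted against distance from the first region in kb, with points for single libraries, lines for the means of the 4 groups (n = 2) and names at promoters. Single regions of the Tnfrsf1b, Taok3, Zfp385a and Ets1 clusters separate the groups more widely than most other regions of the same cluster, the Retreg1 lines are lower in both proNeu groups at most regions, and the promoters from Cyb561d2 to Ifrd2 carry the higher proNeu lines in the Cacna2d2 cluster.

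In other clusters the called regions lay all or mostly in 1 direction. Retreg1, a receptor for the autophagy of endoplasmic reticulum, had 12 regions in its body (chr15:25858128-25916724). Of these, 6 were lower and none higher in proNeu1 against cMoP. Several of these region calls were lost with DESeq2 (adjusted p from 0.0517 to 0.117), and some also without proNeu1 replicate 2. The sums were 139 and 159.5 CPM in cMoP, 129 and 149 in GMP-MoP, 94.8 and 74.4 in proNeu1, and 55 and 57.5 in proNeu2, so that every proNeu library was below every cMoP and GMP-MoP library. The log2 change was -0.82 ± 0.14, adjusted p = 1.56e-07, for proNeu1 against cMoP and 0.73 ± 0.14, adjusted p = 2.07e-05, for GMP-MoP against proNeu1. It was 1 of 6 dense clusters in which the changes did not pass the test for being unequal in proNeu1 against cMoP (adjusted p = 0.189). The regions of the Aim2 and Rubcnl clusters, described next, did change unequally in that test (adjusted p = 4.03e-08 and 3.22e-09).

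Aim2, a sensor of DNA in the cytosol, had a cluster of 12 regions (chr1:173398477-173456980), of which 5 were lower and none higher in proNeu1. Its sums were 254 and 271 CPM in cMoP, 236 and 273 in GMP-MoP, 179 and 141 in proNeu1, and 142 and 132 in proNeu2, with the proNeu libraries all below the others, and the log2 change was -0.72 ± 0.12, adjusted p = 1.01e-07, for proNeu1 against cMoP and 0.68 ± 0.12, adjusted p = 3.4e-06, for GMP-MoP against proNeu1. The Aim2 promoter, whose sequence is shown above (chr1:173420052-173421034), was not called, at 34.7 and 39.6 CPM in cMoP, 42.6 and 41.4 in GMP-MoP, 36.8 and 33.9 in proNeu1, and 32.8 and 29.4 in proNeu2 (29.4 to 42.6 CPM over all libraries). The region chr1:173451438-173452373 fell, with 38.9 and 44.7 CPM in cMoP, 21 and 32.2 in GMP-MoP, 10.9 and 5.88 in proNeu1, and 11.1 and 14.7 in proNeu2 and log2 changes of -2.32 ± 0.28, adjusted p = 7.82e-13, for proNeu1 against cMoP and 1.69 ± 0.32, adjusted p = 1.06e-05, for GMP-MoP against proNeu1. In the cluster of Rubcnl, an autophagy gene (chr14:74976687-75045824), the sum was likewise lower in proNeu1 (-0.59 ± 0.14, adjusted p = 0.000117); 4 regions fell, such as chr14:75044898-75045824 with 18.7 and 18.3 CPM in cMoP, 11.9 and 12 in GMP-MoP, 3.41 and 3.92 in proNeu1, and 2.34 and 2.56 in proNeu2, but 1 rose.

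Among the clusters with higher sums in proNeu1, several hold many promoters. The cluster over Cacna2d2 (chr9:107514451-107613456) holds 14 genes, among them Rassf1, Hyal1 to Hyal3 and Sema3b, and 8 of its 15 regions were higher in proNeu1 than in cMoP, none lower, while 7 were lower and none higher in GMP-MoP against proNeu1. Its sums were 374 and 356 CPM in cMoP, 359 and 339 in GMP-MoP, 539.9 and 542 in proNeu1, and 585 and 565 in proNeu2, with no overlap between the proNeu groups and the others, and the log2 change was 0.57 ± 0.10, adjusted p = 7.93e-07, for proNeu1 against cMoP and -0.63 ± 0.10, adjusted p = 4.16e-07, for GMP-MoP against proNeu1. With loess scaling of the sums the first had an adjusted p of 0.094. At the shared promoter region of Hyal3 and Naa80 (chr9:107580148-107581630) levels were 19.2 and 14.2 CPM in cMoP, 21 and 18.5 in GMP-MoP, 38.2 and 35.9 in proNeu1, and 36.3 and 40.9 in proNeu2, a log2 change of 1.15 ± 0.24, adjusted p = 2.56e-05, in proNeu1 against cMoP. In the cluster of Rab37, Slc9a3r1, Nat9 and Tmem104 (chr11:115153358-115232172), 6 regions were higher and none lower, and the sum had 0.76 ± 0.11, adjusted p = 4.83e-09, for proNeu1 against cMoP and -0.73 ± 0.12, adjusted p = 2.44e-07, for GMP-MoP against proNeu1. Its first region, in the body of Rab37, a small GTPase of vesicle traffic (chr11:115153358-115154628), had 15 and 10.2 CPM in cMoP, 16.8 and 12.5 in GMP-MoP, 40.9 and 41.1 in proNeu1, and 47.4 and 36.4 in proNeu2; the proNeu libraries lay at 36.4 to 47.4 CPM and the others at 10.2 to 16.8 CPM.

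The cluster of Tap1, Tap2, Psmb8, Psmb9 and the H2-DM genes, which encode parts of antigen processing (chr17:34135073-34211243), had 4 higher regions and no lower one in proNeu1 against cMoP, and a log2 change of the sum of 0.60 ± 0.11, adjusted p = 2.72e-06. The shared promoter region of Psmb9 and Tap1 (chr17:34186852-34188219) had 37.8 and 21.3 CPM in cMoP, 37.8 and 28.9 in GMP-MoP, 58.6 and 57.4 in proNeu1, and 66.1 and 69 in proNeu2, with the proNeu libraries above all others and a log2 change of 0.97 ± 0.20, adjusted p = 1.23e-05. In the cluster of Syngr1 and Rpl3 (chr15:80071578-80117786) the sum rose (0.76 ± 0.13, adjusted p = 3.73e-07, in proNeu1 against cMoP), with 7 regions higher, such as chr15:80105291-80106379 at 4.66 and 4.57 CPM in cMoP, 6.29 and 7.09 in GMP-MoP, 17.7 and 23.5 in proNeu1, and 26.3 and 42.8 in proNeu2, and 2 lower at the Rpl3 end. The histone gene cluster with H2bc6, H3c6 and H1f3 (chr13:23516851-23598431), where 10 of 15 regions overlap promoter windows, was among the strongest, at 598 and 528 CPM in cMoP, 540.4 and 584 in GMP-MoP, 587 and 608 in proNeu1, and 655 and 679 in proNeu2. None of its regions was called in the 4 comparisons, and the log2 change of its sum was 0.09 ± 0.10, adjusted p = 0.497, for proNeu1 against cMoP. Histone genes are near-identical copies, and the mapping may split their reads, so these levels are uncertain. The plot of summed levels shows the 4 clusters of largest change in each direction.

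**Figure D5:**
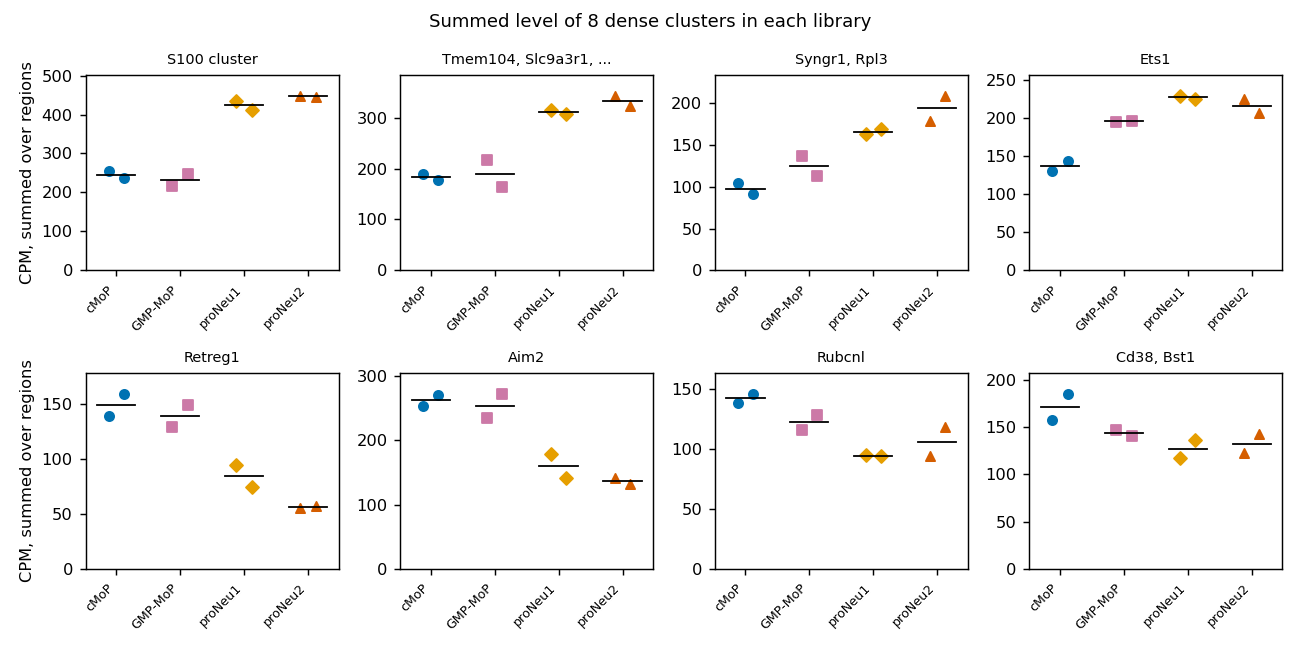
Summed level in CPM (vertical axes, from 0) of 8 dense clusters in each library; points are single libraries, 2 in each of the 4 groups on the horizontal axes, and bars are group means. In the upper row both proNeu groups lie above cMoP, and in the lower row both lie below it; GMP-MoP is near cMoP in the S100, Tmem104, Retreg1 and Aim2 panels and between cMoP and proNeu1 for Ets1.

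GMP-MoP and cMoP were called apart at few members. The 4 clusters with the smallest p for unequal change in this comparison were those of Ets1, S100, Selplg and Nucb2, whose regions are described above (adjusted p = 9.02e-10, 9.2e-08, 4.6e-05 and 0.000115). The lower sums were those of Zfp385a and of Rgs3, a regulator of G protein signalling (-0.37 ± 0.12, adjusted p = 0.0412). The Rgs3 call was lost without either library of cMoP, of proNeu1 or of proNeu2, and without GMP-MoP replicate 1. It was also lost by total counts (adjusted p = 0.0542), without a filter (0.088) and with DESeq2 (0.465). With only the 2 groups (0.153) and without the proNeu2 group (0.102) it was lost as well.

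Between GMP-MoP and proNeu1, the sums of largest change also included 2 higher ones and 1 lower one whose calls were lost in at least 1 alternative. The Rubcnl sum was higher in GMP-MoP (0.38 ± 0.14, adjusted p = 0.0328), a call lost without proNeu1 replicate 1 (0.119), without proNeu1 replicate 2 (0.129), without GMP-MoP replicate 2 (0.248) and with DESeq2 (0.145). S1pr1 encodes a receptor for sphingosine 1-phosphate, a lipid that guides the exit of blood cells from tissues. Its cluster of 15 regions (chr3:115641347-115716771) had 239 and 231 CPM in cMoP, 228 and 248 in GMP-MoP, 207 and 179.5 in proNeu1, and 157 and 155 in proNeu2. The log2 change of that sum in GMP-MoP against proNeu1 was 0.30 ± 0.12, adjusted p = 0.0369, a call lost without proNeu1 replicate 2 (0.338), without proNeu2 replicate 1 (0.0529), without proNeu2 replicate 2 (0.0558), without GMP-MoP replicate 2 (0.224), without a filter (0.0559) and with DESeq2 (0.108). The sum over Mcur1, which encodes a regulator of mitochondrial calcium uptake, was lower in GMP-MoP (-0.60 ± 0.13, adjusted p = 0.000253; 0.101 without GMP-MoP replicate 2).

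No member region differed between proNeu2 and proNeu1 at an adjusted p under 0.05, beside 0.0758% of all tested regions (0.00842% higher and 0.0674% lower). Without adjustment, 51 of the 735 had a p under 0.05, and DESeq2 also called none. No cluster sum was called, beside 0.13% of joined groups (0.0144% higher and 0.116% lower), with 9 at an unadjusted p under 0.05, and no cluster had unequal change, beside 0.00977%, with 2 at an unadjusted p under 0.05. At the S100a8 promoter, where the proNeu2 libraries (73.2 and 88.2 CPM) were above the proNeu1 libraries (63.4 and 62 CPM), the adjusted p was 0.478.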

How the data were processed

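ATAC-seq libraries of 8 samples in 4 groups were analysed. The deposited values are counts: each file gives whole numbers of reads for the same 61196 regions, with no normalization by the authors visible in the values. Per the submitters' processing notes the tools were Bowtie2 2.3.5.1, HOMER 4.11 and edgeR 3.32.1 and the build mm10. For Tn5 shifting, read filters and region calling the sources used here give nothing. Read depth per library limits precision, and PCR reads are not independent molecules.

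Member regions, gene lists and tests were chosen with earlier results of these data known. Neighbours were joined at gaps of at most 10 kb, and groups of 12 or more were kept. The quasi-likelihood test of edgeR 4.0.16 (R 4.3.3, limma 3.58.1) was run on the counts with filterByExpr at a minimum count of 10, TMM scaling and a robust fit over all 8 libraries with 1 mean per group, adjusted by Benjamini-Hochberg over all tested regions. Sums used the same test over the 33452 joined groups, of which 27685 were tested. Unequal change was the F test of diffSpliceDGE over 10231 groups. SE is the log2 change divided by the square root of F. Ratios of regions with few reads carry exact 95% intervals of the counts, which cover counting error only. Genes and promoter windows (250 bases before to 50 after a start) came from RefSeq tables of GRCm38.p6, the assembly called mm10, and each region took the name of the closest protein-coding gene within 50 kb. The scripts were tested on simulated data. Python 3.11.15 with pandas 2.3.3, scipy 1.17.1 and matplotlib 3.10.9 was used.

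Clusters named are the 10 with most regions, the 4 largest changes in each direction among called sums, the 4 smallest p for unequal change with their extreme regions, and those over listed genes. Other clusters and regions were chosen after their values were seen. Alternatives were other scalings (DESeq2 1.42.0 size factors, total counts, loess), no filter, fewer samples, each library left out, a replicate block, DESeq2, the Simes test, gaps of 5 and 20 kb, and minimum sizes of 10 and 15 regions.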

Additional observations from a re-analysis of the deposited data

How the results depend on the processing

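With 2 libraries a group and a median of 15 to 20 reads in a member region, single calls rest on few reads, and a fit with 1 library in a group assumes that it varies like the other groups. Of the named sums, 9 of 12 calls in proNeu1 against cMoP, 5 of 8 in GMP-MoP against proNeu1 and 0 of 3 in GMP-MoP against cMoP were kept under every alternative run. For named regions these were 69 of 103, 27 of 75 and 4 of 20, and for unequal change 4 of 4 in each. Those 4 were chosen for the smallest p of each comparison, so their being kept says little about the other calls. The test of unequal change was not run with loess scaling or with DESeq2. Loess scaling carried from regions to sums was chosen after seeing the data. Except where a cause lies in the construction of the alternative, the cause of a change was not tested. The log2 change of the region upstream of Nucb2 in GMP-MoP against cMoP was -1.63, from -2.40 to 0.24 when 1 library was left out, the highest without cMoP replicate 2, with 8 reads in cMoP against 2 in GMP-MoP.

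A gap of at most 5 kb gave 0 clusters and 0 members (the largest group had 9 regions), so no calls could be counted. A gap of 20 kb gave 661 clusters with 10812 regions, a minimum of 10 regions gave 160 with 1864, and a minimum of 15 gave 17 with 282. With 20 kb, 10 regions and 15 regions in that order, member regions called numbered 3835, 658 and 102 in proNeu1 against cMoP, 2150, 360 and 54 in GMP-MoP against proNeu1, and 426, 76 and 14 in GMP-MoP against cMoP. Whatever the gap or minimum, 42.4%, 24.1% and 5.46% of all tested regions were called in these comparisons. Called sums numbered 379, 79 and 9, then 318, 67 and 8, then 34, 9 and 1. Clusters of unequal change numbered 628, 147 and 16, then 495, 108 and 14, then 210, 36 and 5. In proNeu2 against proNeu1, 6 regions, 1 sum and 1 cluster of unequal change were called at 20 kb, and 1 region and 1 cluster of unequal change at 10 regions.

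DESeq2 called 127, 41 and 4 member regions in proNeu1 against cMoP, GMP-MoP against proNeu1 and GMP-MoP against cMoP, against 295, 158 and 36, and 11 and 0 sums in the last 2 comparisons, against 25 and 3. Of the 47506 regions of the genome that passed the read filter, DESeq2 called 9242, 2424 and 57. There edgeR called 20151, 11429 and 2594, so DESeq2 called fewer regions over the whole genome as well. The Simes test called 6 clusters of unequal change in GMP-MoP against cMoP, against 18. Sums called in GMP-MoP against cMoP were 6 with loess scaling, 1 without a filter, 1 with only the 2 groups and 1 without the proNeu2 group. In proNeu2 against proNeu1, 1 sum was called with loess scaling and 1 with only the 2 groups. Leaving out 1 library gave 218 to 319, 79 to 159 and 17 to 37 called regions in the 3 comparisons, 22 to 38, 12 to 30 and 0 to 3 sums, and 54 to 56, 29 to 48 and 8 to 19 clusters of unequal change.

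The labels do not say whether libraries of the same replicate number were paired, and low correlations cannot settle it. Deviations of same-numbered libraries correlated at 0.0019 in proNeu1 against cMoP, -0.0102 in GMP-MoP against proNeu1, 0.0775 in GMP-MoP against cMoP and 0.0226 in proNeu2 against proNeu1. With the replicate block, 297, 166, 39 and 0 member regions, 37, 32, 4 and 0 sums and 56, 47, 19 and 0 clusters of unequal change were called in the same order. Over all 47506 tested regions the block gave 20455, 11729, 2736 and 40 calls.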

Other observations

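Further dense clusters held regions that were called in proNeu1 against cMoP. These clusters were chosen after their values were seen. Clec12a encodes an inhibitory C-type lectin receptor of myeloid cells. In its cluster (chr6:129315474-129379198) the first region (chr6:129315474-129316868) had 21.8 and 18.3 CPM in cMoP, 18.2 and 17.5 in GMP-MoP, 7.50 and 6.53 in proNeu1, and 3.51 and 2.56 in proNeu2. Its log2 change was -1.50 ± 0.35, adjusted p = 0.00014, in edgeR's quasi-likelihood test. The region chr6:129337509-129338292 had 1.04 and 1.02 CPM in cMoP, 6.29 and 6.0 in GMP-MoP, 11.6 and 11.8 in proNeu1, and 15.8 and 10.2 in proNeu2, so it was lowest in cMoP and highest in the proNeu groups, with a log2 change of 3.42 ± 0.59, adjusted p = 2.84e-07. Lta4h encodes the hydrolase that makes leukotriene B4, which attracts neutrophils. In its cluster (chr10:93421763-93471935) the region chr10:93435410-93436004 had 1.55 and 2.54 CPM in cMoP, 7.69 and 4.36 in GMP-MoP, 13 and 12.4 in proNeu1, and 9.95 and 8.95 in proNeu2 and a log2 change of 2.58 ± 0.50, adjusted p = 4.88e-06. The region chr10:93443953-93445432 rose as well (0.76 ± 0.19, adjusted p = 0.000446), with 32.6 and 35.1 CPM in cMoP, 51 and 40.9 in GMP-MoP, 54.5 and 60.1 in proNeu1, and 71.4 and 75.4 in proNeu2.

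Rgs3, a regulator of G protein signalling, had regions that were high in cMoP and GMP-MoP. In its cluster (chr4:62653689-62710493) the region chr4:62699045-62700109 had 29 and 32.5 CPM in cMoP, 15.4 and 20.7 in GMP-MoP, 2.73 and 6.53 in proNeu1, and 3.51 and 5.75 in proNeu2. The proNeu libraries were all below the others, and the log2 change was -2.70 ± 0.35, adjusted p = 9.12e-12, in proNeu1 against cMoP and 1.96 ± 0.40, adjusted p = 5.35e-05, in GMP-MoP against proNeu1. The next region (chr4:62708834-62710493) fell as well (-2.88 ± 0.61, adjusted p = 3.2e-05), with 9.33 and 11.2 CPM in cMoP, 6.29 and 10.4 in GMP-MoP, 2.05 and 0.653 in proNeu1, and 2.34 and 0.639 in proNeu2. Ccr6, a chemokine receptor, and Mpc1, a subunit of the mitochondrial pyruvate carrier, share a cluster (chr17:8210510-8284548). There chr17:8224831-8226398 had 25.4 and 26.9 CPM in cMoP, 10.5 and 10.4 in GMP-MoP, 3.41 and 2.61 in proNeu1, and 2.34 and 3.19 in proNeu2 and fell by 3.09 on the log2 scale (SE 0.40, adjusted p = 1.29e-11) in proNeu1 against cMoP. Further on, chr17:8272261-8273365 held 35 reads in proNeu1 against 3 in cMoP, a ratio of 14.4 after scaling (95% counting interval 4.53 to 73.1), at an adjusted p of 9.82e-08. The cluster over Mcur1 had a lower region (chr13:43495921-43497167, -2.21 ± 0.52, adjusted p = 0.000201, with 8.81 and 13.2 CPM in cMoP, 11.9 and 8.73 in GMP-MoP, 0.682 and 3.92 in proNeu1, and 2.34 and 3.19 in proNeu2) and a higher one (chr13:43524266-43526114, 1.21 ± 0.29, adjusted p = 0.00022, with 15 and 7.11 CPM in cMoP, 18.2 and 9.27 in GMP-MoP, 25.9 and 25.5 in proNeu1, and 36.3 and 35.8 in proNeu2).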
